A study of Mus musculus with 6 samples.

Results

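Fc receptors and inhibitory receptors are the surface proteins by which macrophages read antibody-coated particles and the "self" signals of neighbouring cells. The 10 genes described here were taken by symbol from a table of 24379 mouse genes, and each was found under a single Ensembl identifier. They are the Fc gamma receptor genes Fcgr1, Fcgr2b, Fcgr3 and Fcgr4, the adaptor genes Fcer1g and Tyrobp, the inhibitory receptor genes Sirpa, Pirb and Lilrb4a, and the lipid-sensing receptor gene Trem2. Their messages were counted in RNA-seq libraries of RAW264.7, a mouse cell line that resembles macrophages and came from a virus-induced leukaemia. The 6 libraries fall into 3 of cells labelled as treated with high-fructose corn syrup (HFCS) and 3 labelled WT, here the control, all with a time of 18 h. The dose is 140 mM in the titles and 170 mM in the source names, and the labels do not say what the control cells received. Whether the replicates were separate cultures is not stated, so the p-values reflect library-to-library spread only, and that spread may be technical.

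Signals from these receptors run through short tyrosine motifs. Activating receptors such as FcγRI, FcγRIII and FcγRIV carry none of their own in the mouse and pair with the Fcer1g product, the common gamma chain, whose activation motif (ITAM) recruits the kinase SYK once it is phosphorylated by SRC-family kinases. The Tyrobp product, DAP12, does the same for TREM2 and related receptors. FcγRIIB, SIRPα, PIR-B and LILRB4 carry inhibitory motifs (ITIMs) that recruit the phosphatases SHP-1, SHP-2 or SHIP-1, so that the response of a macrophage to antibody depends on the balance of both kinds.

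By edgeR's quasi-likelihood test at an adjusted p under 0.05, 9 of the 10 genes rose in cells labelled HFCS and 0 fell. Over all 14360 genes tested, 44.9% were called by the same rule, 22.4% higher and 22.5% lower. These were 3223 higher and 3224 lower genes, and 3975 and 2624 with library-size scaling, under which 9 of the 10 genes were again higher. The genes with the largest log2 fold changes were Fcgr3 (1.68), Lilrb4a (1.58), Fcgr1 (1.56) and Sirpa (1.43), while Trem2 (0.04) did not pass. All 10 genes passed the filter on low counts, and 5 rose at least 2-fold, which 4.24% of tested genes did. Every HFCS-labelled library lay above every control-labelled one for 8 of the genes, against 27.4% of tested genes, the exceptions being Tyrobp and Trem2. The median log2 fold change of the 10 was 0.95, beside 0.00 over all tested genes. In bulk RNA, more message per cell and more cells with the message cannot be told apart.

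**Figure D1:**
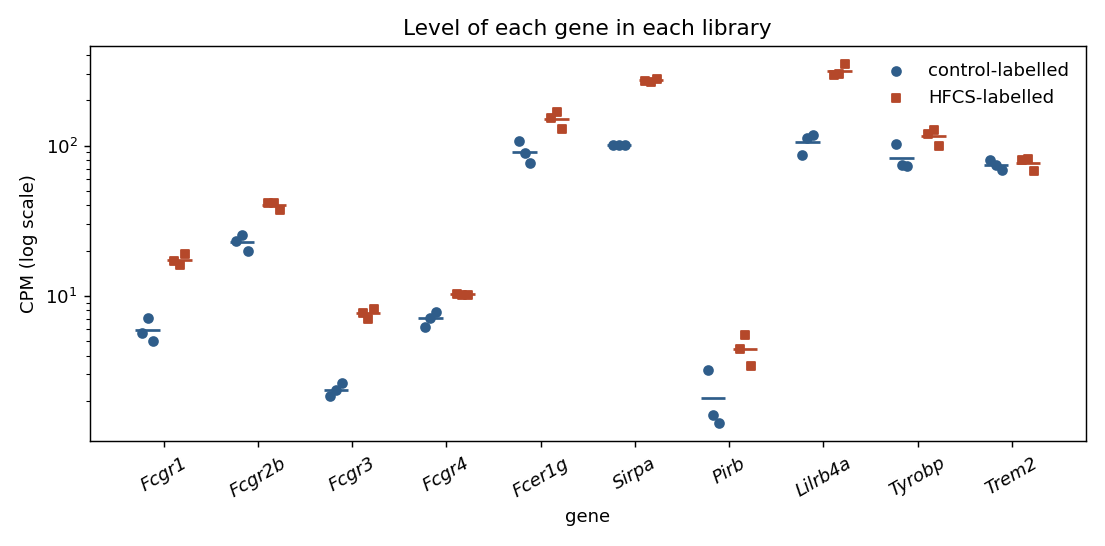
Levels of the 10 genes in each library as CPM (read counts scaled to the TMM-scaled library size, log axis). Circles are control-labelled and squares HFCS-labelled libraries, with a line at each group's mean (n = 3 each). The squares lie above the circles for all genes but Tyrobp and Trem2, whose groups overlap.

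Total counts per library were 13108485 to 15340255. On the second principal component, which held 11.8% of the variance, control replicate 1 lay at 29.3 and the other controls at -14.2 and -13.4. Macrophage identity was checked with 8 markers. Of these, 7 had counts and Mrc1 was not listed. Mertk was near absent, with 0 counts in the HFCS group and 6 in the control group, and was not tested. Their summed level was 1836 to 1913 CPM in HFCS-labelled and 1485 to 1498 CPM in control-labelled libraries, and of the 6 tested, 4 rose and 2 fell, so the identity markers did not move one way. The F4/80 gene Adgre1 had 65.8 ± 0.821 against 31.96 ± 1.825 CPM (mean ± SD, n = 3) and the CSF1 receptor gene Csf1r 116 ± 1.74 against 184.5 ± 4.60 CPM. Markers of T cells, NK cells, mast cells, neutrophils, dendritic cells and fibroblasts or epithelium summed to at most 3.19 CPM per list in any library, and the mast cell genes Fcer1a, Kit and Ms4a2 were not listed. The B-cell list summed to 237 to 263.5 against 302 to 351 CPM, nearly all of it Ighm (243 against 317 CPM), with Pax5 below 0.5 CPM. The part of these differences in the results was not tested. All directions rest on the labels, and the aldose reductase gene Akr1b3, a gene that hypertonic stress is known to induce, lay at 208 ± 12.0 CPM in the HFCS-labelled and 7435 ± 381 CPM in the control-labelled libraries. That direction would run against the labels if only the HFCS-labelled cells were in hypertonic medium. What the control cells received is not stated, and these files do not settle whether the groups were exchanged. HFCS and control therefore mean the label throughout, and an exchange would turn every rise into a fall and every fall into a rise.

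RefSeq promoter sequences (GRCm38.p6, the build mm10) were found for 7 of the 10 genes, and those of 4 are shown because they set genes that rose beside Trem2, which did not pass the test. Fcer1g, Fcgr2b and Pirb also rose, and their windows are not shown. The windows of Fcer1g and Fcgr2b had 0 matches to any motif searched. For Fcgr3 the window of one RefSeq start is given. Each run is the 250 bases before the RefSeq start, on the gene's own strand. Capitals mark matches to the core GAGGAA (or TTCCTC on the other strand) bound by PU.1, the factor that sets myeloid identity, to the spaced palindrome TTCNNNGAA read by STAT factors, and to the AP-1 site TGANTCA. A match describes letters, not binding.
Fcgr1 (chr3:96293970-96294219, minus strand): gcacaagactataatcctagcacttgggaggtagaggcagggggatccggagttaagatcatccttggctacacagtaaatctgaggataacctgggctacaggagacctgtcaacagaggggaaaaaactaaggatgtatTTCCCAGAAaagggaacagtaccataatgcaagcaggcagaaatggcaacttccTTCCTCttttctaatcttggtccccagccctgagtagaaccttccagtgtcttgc
Fcgr3 (chr1:171059395-171059644, minus strand): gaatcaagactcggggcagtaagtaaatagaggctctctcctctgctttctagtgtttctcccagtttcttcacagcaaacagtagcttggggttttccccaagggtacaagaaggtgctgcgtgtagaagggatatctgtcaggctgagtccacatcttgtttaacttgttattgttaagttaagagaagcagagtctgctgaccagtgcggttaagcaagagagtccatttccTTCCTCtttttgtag
Fcgr4 (chr1:171018676-171018925, plus strand): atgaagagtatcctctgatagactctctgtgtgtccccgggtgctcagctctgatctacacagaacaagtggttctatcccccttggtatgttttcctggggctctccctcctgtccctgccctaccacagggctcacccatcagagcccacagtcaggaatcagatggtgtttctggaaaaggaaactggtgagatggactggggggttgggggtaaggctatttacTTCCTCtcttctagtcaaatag
Trem2 (chr17:48346151-48346400, plus strand): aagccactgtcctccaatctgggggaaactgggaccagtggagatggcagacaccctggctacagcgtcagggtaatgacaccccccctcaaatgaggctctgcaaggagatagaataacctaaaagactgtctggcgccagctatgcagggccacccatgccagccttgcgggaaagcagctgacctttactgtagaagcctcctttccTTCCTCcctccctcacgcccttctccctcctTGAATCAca
The PU.1 core was present in 5 of the 7 windows (Fcgr1, Fcgr3, Fcgr4, Pirb and Trem2) and in 23.3% of 32851 promoter windows of the same length. Not all windows lie upstream of the whole gene. Those of Fcgr2b and Fcgr3 lie within the annotated span of their own gene. Of their 250 bases, 187 for Fcgr2b and 27 for Fcgr3 are annotated as exon of that gene. In the 4 windows shown the PU.1 core reads TTCCTC on the gene's strand. Its last base lies 50 bases before the start of Fcgr1, 17 before that of Fcgr4 and 35 before that of Trem2. For Fcgr3 it lies 10 bases before the start shown and 1 base before another RefSeq start. The STAT palindrome was in the window of Fcgr1 alone among the 7, against 7.02% of all windows, and the AP-1 letters in that of Trem2 alone, against 6.75%. The NF-kB sequence, GGGAN followed by TTTCC, was in 0 of the 7 and in 0.356% of all windows. Thus the PU.1 letters were shared by the genes with the largest and the smallest change among those with a promoter sequence, Fcgr3 and Trem2.

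The high-affinity IgG receptor gene Fcgr1 (ENSMUSG00000015947, mm10 chromosome 3, 96282909 to 96293969, minus strand) had 17.2, 16.0 and 19.1 CPM in HFCS replicates 1 to 3 and 5.62, 7.12 and 5.01 CPM in control replicates 1 to 3. The groups were well apart, and the log2 fold change was 1.56 ± 0.16 (SE) with an edgeR adjusted p of 2.8e-05. Fcgr3 (ENSMUSG00000059498, chromosome 1, 171051174 to 171064935, minus strand), the activating low-affinity IgG receptor, had 7.73, 6.998 and 8.17 CPM against 2.15, 2.35 and 2.61 CPM. Its lowest HFCS-labelled library was above its highest control by more than the spread of either group, and the log2 fold change was 1.68 ± 0.18 (edgeR adjusted p = 4.8e-05). It rested on 340 counts in the HFCS group and 100 in the control group.

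Fcgr4 (ENSMUSG00000059089, chromosome 1, 171018920 to 171029761, plus strand), the activating receptor of intermediate affinity in the mouse, changed less. Its levels were 10.2 CPM in each HFCS-labelled library against 6.24, 7.12 and 7.835 CPM in the controls, a log2 fold change of 0.53 ± 0.14 (edgeR adjusted p = 0.0115). The inhibitory receptor gene Fcgr2b (ENSMUSG00000026656, chromosome 1, 170958617 to 170976547, minus strand) had 41.5, 41.5 and 37.0 CPM against 23.2, 25.3 and 19.9 CPM. Its log2 fold change of 0.81 ± 0.11 (edgeR adjusted p = 1.9e-04) lay between those of Fcgr4 and Fcgr1, so activating and inhibitory Fc gamma receptor genes rose in the same libraries.

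**Figure D2:**
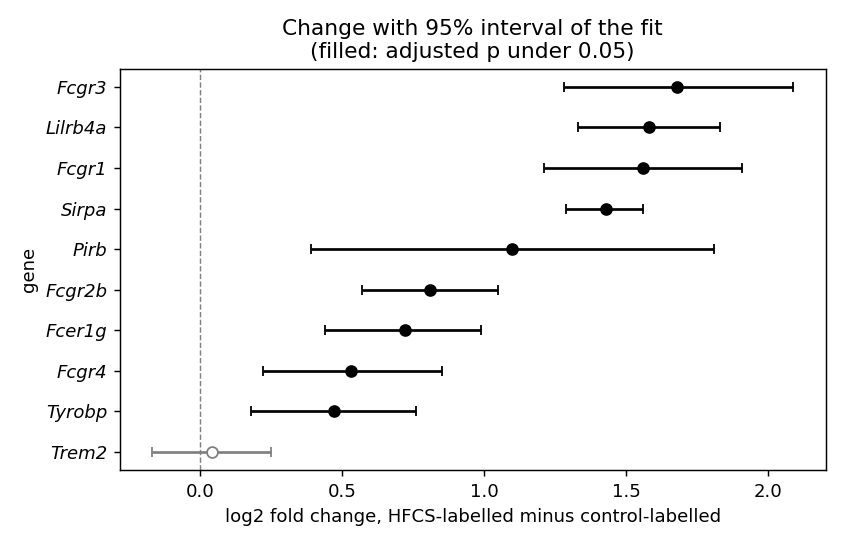
Log2 fold change of each gene (HFCS-labelled minus control-labelled libraries, n = 3 each) with the 95% interval of the edgeR fit, filled where the adjusted p was under 0.05. Fcgr3, Lilrb4a, Fcgr1 and Sirpa lie above 1.4, and the interval of Trem2 (-0.17 to 0.25) spans 0.

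The make-up of the Fc gamma receptor messages was compared within each library, where library scaling plays no part, as each gene's share of the counts per kilobase of exon of the 4 genes. Fcgr2b held 27.2, 28.1 and 24.05% in the HFCS-labelled and 32.3, 30.9 and 26.2% in the control-labelled libraries. These ranges overlapped, and the difference of -3.38 percentage points had a two-sided exact permutation p of 0.3, where 3 libraries against 3 cannot go below 0.1. The difference was -2.13 without control replicate 1, -2.18 without HFCS replicate 3 and -5.18 without control replicate 3. By raw counts, in which Fcgr2b weighs more because it is the longest of the 4, the difference was -6.53 percentage points. The groups did not overlap by raw counts, so the overlap depends on the measure. The permutation test was run on counts per kilobase only. For Fcgr2b the exon length was 5790 bases, the union over all its transcripts. Rarely used exons would set its share per kilobase too low. The shares of the activating genes did not move one way. Fcgr1 held 25.7 ± 1.83% against 17.2 ± 2.36% and Fcgr3 16.8 ± 0.945% against 10.35 ± 0.997% (mean ± SD, n = 3), while Fcgr4 held 31.1 ± 0.682% against 42.6 ± 4.30%. The groups did not overlap for these 3 shares, which are given as a description.

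**Figure D3:**
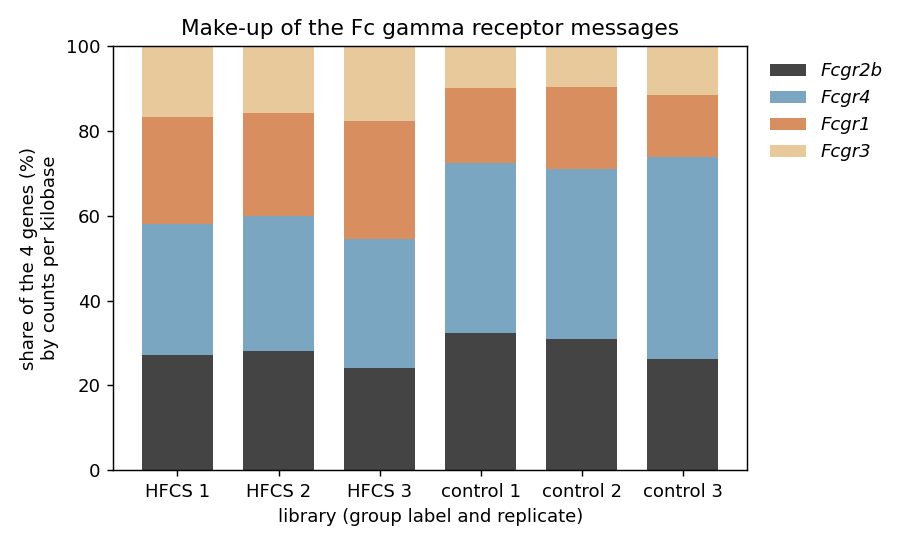
Share of each Fc gamma receptor gene in the summed counts per kilobase of Fcgr1, Fcgr2b, Fcgr3 and Fcgr4, as a percentage, one bar per library. Fcgr4 takes 40.1 to 47.6% in the control-labelled and 30.5 to 31.8% in the HFCS-labelled libraries, and Fcgr2b overlaps between the groups.

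Fcer1g (ENSMUSG00000058715, chromosome 1, 171229572 to 171234365, minus strand) lies with Fcgr2b, Fcgr4 and Fcgr3 in a stretch of 275.7 kb of chromosome 1. It had 153, 167 and 129 CPM against 107, 88.7 and 76.8 CPM, and every HFCS-labelled library was above the highest control. The log2 fold change was 0.72 ± 0.13 (edgeR adjusted p = 9.7e-04). The other adaptor gene, Tyrobp (ENSMUSG00000030579, chromosome 7, 30413760 to 30417585, plus strand), had 119, 128 and 99.6 CPM against 102, 74.6 and 73.3 CPM. HFCS replicate 3 was below control replicate 1, so the groups overlapped, and the log2 fold change was 0.47 ± 0.13 (edgeR adjusted p = 0.0138). The call on Tyrobp was lost on leaving out HFCS replicate 2 (edgeR adjusted p = 0.06), control replicate 2 (0.0569) or control replicate 3 (0.0573), while without control replicate 1 its log2 fold change was 0.65 (edgeR adjusted p = 3.6e-05).

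Within a library, Fcer1g exceeded Tyrobp by 0.36, 0.385 and 0.37 on the log2 count scale in the HFCS-labelled and by 0.07, 0.25 and 0.07 in the control-labelled libraries. The groups did not overlap, and the difference of 0.24 had the smallest p that the two-sided exact permutation test can give (0.1, n = 3 each). Per kilobase of exon, these small adaptor genes had the highest levels of the 10 in both groups. This order depends on the exon lengths, which are unions over all transcripts. By mean CPM, Lilrb4a (315 HFCS-labelled, 105.5 control-labelled) and Sirpa (272, 101) were above Fcer1g (150, 90.9) and Tyrobp (116, 83.3). Tyrobp was at 173 ± 21.7 against 125 ± 24.3 CPM per kilobase and Fcer1g at 171 ± 22.2 against 104 ± 17.6 CPM per kilobase (mean ± SD, n = 3), and the libraries' ranges of Tyrobp and Fcer1g overlapped within each group.

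Trem2 (ENSMUSG00000023992, chromosome 17, 48346401 to 48354147, plus strand) codes for a receptor for lipids and lipoproteins that signals through the Tyrobp product. It had 80.5, 82.0 and 67.2 CPM in HFCS replicates 1 to 3 and 80.5, 74.2 and 68.5 CPM in the controls, which covered nearly the same range. The log2 fold change was 0.04 ± 0.09 (edgeR adjusted p = 0.754), with a 95% interval of -0.17 to 0.25. Its sign turned without HFCS replicate 2 (-0.00053) and without control replicate 3 (-0.01), and the value was 0.10 without control replicate 1. The log2 ratio of Trem2 to Tyrobp counts was -0.57, -0.64 and -0.57 in the HFCS-labelled and -0.34, -0.01 and -0.10 in the control-labelled libraries. It was lower in each HFCS-labelled library than in any control, with a difference of -0.44 and again the smallest p the two-sided exact permutation test allows (0.1, n = 3 each).

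Among the inhibitory receptors, Sirpa (ENSMUSG00000037902, chromosome 2, 129592835 to 129632228, plus strand) had the smallest adjusted p of the 10 genes. Its product binds CD47 on other cells and restrains phagocytosis. It had 270.2, 265.4 and 279 CPM against 102, 101 and 101 CPM, so that libraries of one group differed by far less than the groups did. The log2 fold change was 1.43 ± 0.06, with an edgeR adjusted p of 8.4e-08. Its ligand gene Cd47, named after its value was seen, rose by 0.30 ± 0.07 (edgeR adjusted p = 0.00492), from 201 ± 11.4 to 246 ± 9.60 CPM. The activating relative Sirpb1a was near absent, with 0 counts in the HFCS group and 3 in the control group.

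Lilrb4a (ENSMUSG00000112148, chromosome 10, 51490956 to 51496611, plus strand), which codes for the inhibitory receptor also called gp49B, had 295, 300.3 and 349.8 CPM against 87.0, 113 and 117 CPM. The groups were far apart, although control replicate 1 was the lowest library and HFCS replicate 3 the highest. The log2 fold change was 1.58 ± 0.11 (edgeR adjusted p = 2.8e-06). Its neighbour Lilr4b, which codes for the gp49A protein without inhibitory motifs, gave almost the same numbers, 324 ± 25.4 against 107 ± 16.7 CPM and a log2 fold change of 1.60 ± 0.11 (edgeR adjusted p = 2.2e-06). The ratio of Lilrb4a to Lilr4b counts was 0.937 to 1.036 in the 6 libraries. Of 50-base windows in the Lilrb4a transcripts, 46.7% also occur in Lilr4b (26.1%) or in the read-through gene Gm49339 (33.7%), and how reads matching both were counted is unknown, so the share of each gene in these counts is uncertain. The antisense gene Gm40645, which overlaps Lilrb4a, had 41 counts in the HFCS group and 18 in the control group.

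Pirb (ENSMUSG00000058818, chromosome 7, 3711409 to 3720391, minus strand), the paired inhibitory receptor gene for MHC class I, was the lowest of the 10. It had 4.46, 5.49 and 3.42 CPM against 3.19, 1.615 and 1.41 CPM, from 198 and 88 counts in all. Control replicate 1 came close to HFCS replicate 3 without reaching it, and the log2 fold change was 1.10 ± 0.32 (edgeR adjusted p = 0.0174). The call on Pirb was lost without HFCS replicate 2 (0.93, edgeR adjusted p = 0.0752), control replicate 2 (0.95, 0.0631) or control replicate 3 (0.88, 0.0629), and it was at 1.56 without control replicate 1 (edgeR adjusted p = 6.9e-04). Of its 50-base windows, 34.0% occur in other genes, most of all in Gm14548 and the activating copy Pira2, so reads of these genes may be mixed. Pira2 itself had 10 counts in the HFCS group and 9 in the control group.

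For the other genes, 9.6% of the windows of Fcgr3 and 4.4% of those of Fcgr2b were shared, for Fcgr3 all of them with Fcgr2b, whose outer domains are close copies. Fcgr1, Fcgr4, Fcer1g, Sirpa, Tyrobp and Trem2 shared 0 windows of 50 bases with any other gene. Apart from Lilrb4a, genes overlapping the 10 had at most 3 counts over the libraries of a group where they were listed.

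Per kilobase of exon, the order of the 10 genes in the control-labelled libraries ran from Tyrobp and Fcer1g through Sirpa (20.6 ± 0.109 CPM per kilobase), Lilrb4a (20.2 ± 3.09), Trem2 (15.05 ± 1.21), Fcgr4 (5.63 ± 0.635), Fcgr2b (3.94 ± 0.471), Fcgr1 (2.285 ± 0.419) and Fcgr3 (1.365 ± 0.133) down to Pirb (0.464 ± 0.218). The ranges of Tyrobp and Fcer1g and those of Sirpa and Lilrb4a overlapped, and the other neighbours were apart. In the HFCS-labelled libraries Lilrb4a (60.3 ± 5.76) and Sirpa (55.3 ± 1.44) stood further above Trem2 (15.5 ± 1.65), and Fcgr1 (6.73 ± 0.6045) overlapped Fcgr2b (6.91 ± 0.448). Exon lengths were the union over all transcripts of GENCODE M21, so a gene with rarely used exons is set too low on this scale.

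Fcer1g, Tyrobp, Pirb and Trem2 varied together between libraries of one group. Each was highest in HFCS replicate 2 and control replicate 1 and lowest in HFCS replicate 3 and control replicate 3. Control replicate 1 stood above its group's mean of log2 CPM by 0.25 for Fcer1g, 0.31 for Tyrobp, 0.68 for Pirb and 0.12 for Trem2, whereas Lilrb4a stood below it by -0.27. The median of 1377 tested genes with under 1000 bases of exon followed the same order, at 0.065 in HFCS replicate 2 and -0.077 in HFCS replicate 3, and at 0.099 in control replicate 1 and -0.074 in control replicate 3. Tyrobp and Fcer1g are such short genes, with 667 and 874 bases, but Pirb and Trem2 are not. With each library's trend on exon length removed, the log2 fold change was 0.55 for Tyrobp (edgeR adjusted p = 5.5e-04) and 0.78 for Fcer1g (5.2e-05).

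**Figure D4:**
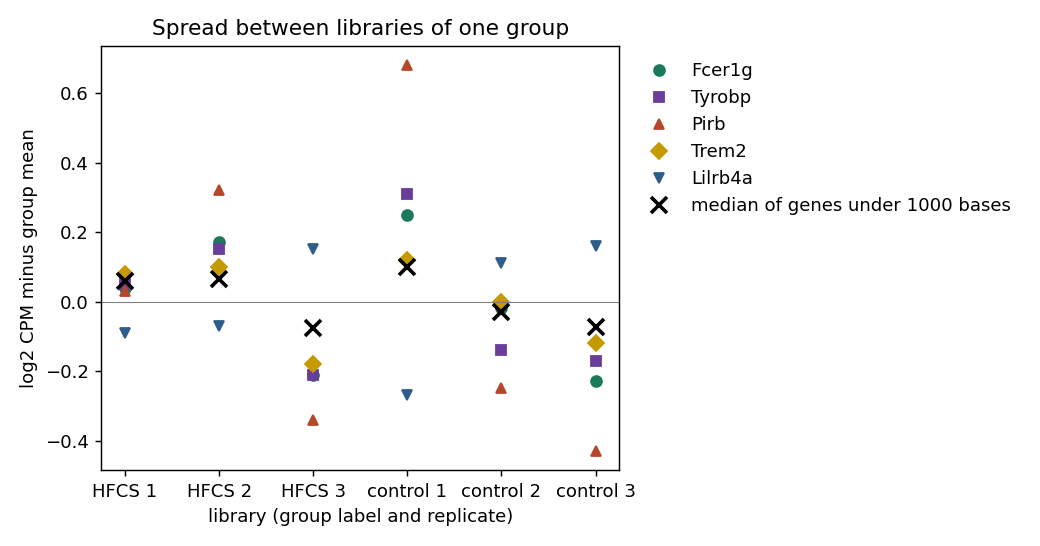
Log2 CPM of 5 genes minus the mean of their own group, in each library, with crosses for the median of all tested genes under 1000 bases. In the controls, Pirb, Tyrobp, Fcer1g and Trem2 lie above 0.1 in replicate 1, where Lilrb4a lies at -0.27.

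Genes that carry the receptors' signals moved both ways, as did tested genes at large, of which 22.4% were higher and 22.5% lower. The same shares are the background for the lists that follow. Of 29 tested ITAM kinases and adaptors, 10 rose, 13 fell and 6 did not pass, with a median log2 fold change of -0.10. The exchange factor gene Vav1 had the highest change (0.87 ± 0.06, edgeR adjusted p = 3.8e-06), at 206 ± 5.83 against 113 ± 4.54 CPM. Bcl10, part of the CARD9 complex, rose by 0.75 ± 0.09. The lowest were the adaptor genes Lat (-1.26 ± 0.24) and Blnk (-0.74 ± 0.08) and the transcription factor gene Nfatc1 (-0.71 ± 0.07). Lat was low in both groups, at 2.32 ± 0.331 against 5.55 ± 1.44 CPM, from 103 counts in the HFCS group and 235 in the control group. Syk, the kinase that binds phosphorylated ITAMs and here named after its value was seen, was at 171 ± 3.12 against 182 ± 11.7 CPM (edgeR adjusted p = 0.268).

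Of 16 tested phosphatases and inhibitory adaptors, 8 rose, 4 fell and 4 did not pass, with a median of 0.19. Ptpn11, which codes for SHP-2, rose by 0.59 ± 0.07 (edgeR adjusted p = 1.1e-04), and the ubiquitin ligase gene Cblb (0.58 ± 0.11) and Dok2 (0.43 ± 0.11) rose as well. Inpp5d, which codes for SHIP-1, the lipid phosphatase used by FcγRIIB, fell from 324 ± 3.21 to 237 ± 6.71 CPM (-0.45 ± 0.06, edgeR adjusted p = 1.7e-04). The adaptor gene Dok3 (-0.62 ± 0.10) and the phosphatase gene Ptpn22 (-0.59 ± 0.10) fell too. Ptpn6, which codes for SHP-1, the main partner of PIR-B and SIRPα in myeloid cells, was named after its value was seen and had 241 ± 14.05 against 228 ± 9.64 CPM (edgeR adjusted p = 0.36).

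Of 30 other receptors listed as partners of the Fcer1g or Tyrobp product, 18 were in the table and 9 passed the filter on low counts. Of these 9, 4 rose, 1 fell and 4 did not pass, with a median log2 fold change of 0.77. The lectin receptor gene Clec4e, which codes for the gamma-chain partner Mincle, rose from 129.8 ± 12.3 to 324 ± 30.5 CPM (1.32 ± 0.09, edgeR adjusted p = 2.2e-06). The DAP12 partner gene Clec5a rose by 0.93 ± 0.12, and Cd300lb fell by 0.49 ± 0.07. Trem3, a DAP12 partner at 3.14 ± 1.08 against 1.37 ± 0.301 CPM, rose by 1.19 ± 0.32 (edgeR adjusted p = 0.0114) but lost its call when HFCS replicate 2 was left out (0.89, adjusted p = 0.0652).

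Of 16 tested further inhibitory receptor genes, 4 rose, 2 fell and 10 did not pass, with a median of 0.17. All 4 that rose did so at least 2-fold, which 4.24% of all tested genes did. These were Siglece, a sialic acid receptor (2.07 ± 0.19, edgeR adjusted p = 1.5e-05), Ceacam1 (1.88 ± 0.16), Cd300lf (1.63 ± 0.17) and Lilr4b, which stands in this list for its place beside Lilrb4a and not for an inhibitory motif. Siglece had 10.6, 13.9 and 14.4 CPM against 3.47, 2.495 and 3.32 CPM. Pecam1 (-1.86 ± 0.33) and Havcr2, which codes for TIM-3 (-0.58 ± 0.10), fell. Pecam1 was low in both groups, at 0.785 ± 0.116 against 2.87 ± 0.777 CPM, from 35 counts in the HFCS group and 121 in the control group. Of the 4 other Fc receptor genes tested, Trim21, the cytosolic antibody receptor, rose (1.08 ± 0.36, edgeR adjusted p = 0.0319) and Fcrl1 fell (-0.29 ± 0.10, edgeR adjusted p = 0.0416). Trim21 did not pass without HFCS replicates 1, 2 or 3 or control replicate 1 (adjusted p of 0.0802, 0.0644, 0.0642 and 0.0618). Fcrl1 did not pass without HFCS replicates 1, 2 or 3 or control replicates 2 or 3 (adjusted p of 0.184, 0.132, 0.0537, 0.114 and 0.0594), nor with library-size scaling (0.123), DESeq2 (0.0666) or no filter on low counts (0.126).

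**Figure D5:**
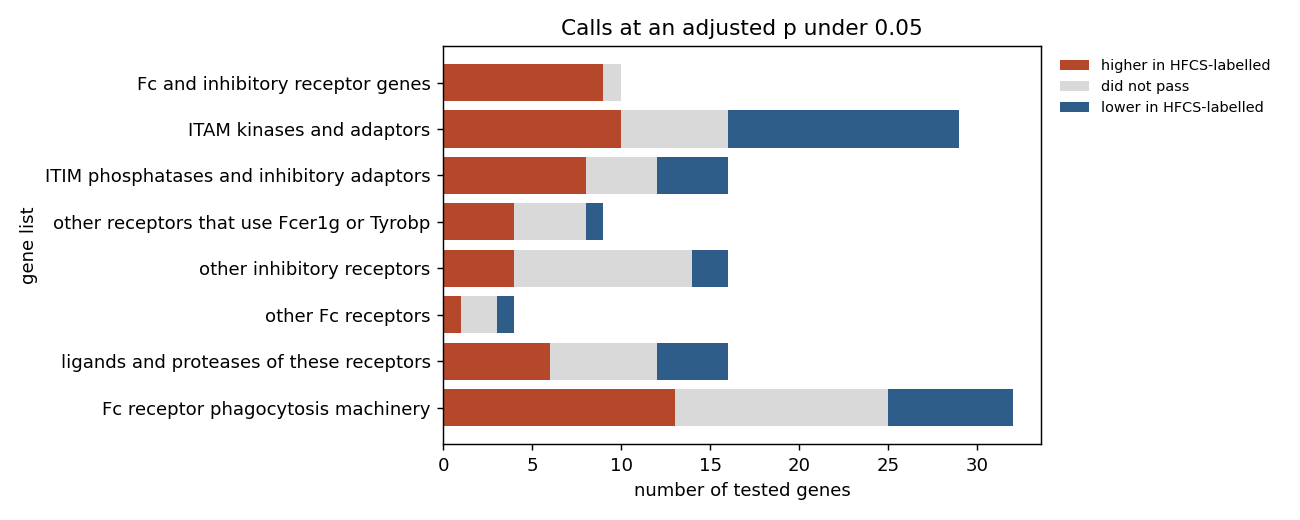
Number of tested genes in each list that were higher, lower or did not pass at an adjusted p under 0.05 (edgeR, HFCS-labelled against control-labelled libraries, n = 3 each). The bar of the 10 receptor and adaptor genes holds 9 higher and 0 lower, and all 7 other lists hold genes of both directions. For other Fc receptors these are 1 higher and 1 lower gene, and neither call held in every setting. The 10 genes and the lists were chosen with earlier results of these data known. Over all tested genes, 22.4% were higher and 22.5% lower.

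Of 16 tested genes for ligands and proteases of these receptors, 6 rose, 4 fell and 6 did not pass, with a median of 0.03. Angptl2, which codes for a ligand of PIR-B, fell from 94.7 ± 9.39 to 48.0 ± 2.27 CPM (-0.98 ± 0.09, edgeR adjusted p = 1.3e-05), and Adam10, a protease that sheds TREM2, fell by 0.55 ± 0.08. The gamma-secretase genes Psen2 (0.92 ± 0.15) and Aph1a (0.35 ± 0.08) rose. Apoe, which codes for a ligand of TREM2, rose by 0.75 ± 0.21 with overlapping groups (edgeR adjusted p = 0.0141) and did not pass without HFCS replicate 2 (0.0644), control replicate 2 (0.0563) or control replicate 3 (0.0545). Omg, at 0.816 ± 0.137 against 1.86 ± 0.902 CPM, fell by 1.19 ± 0.42 (edgeR adjusted p = 0.0395). It did not pass without HFCS replicates 1, 2 or 3 or control replicate 2 (adjusted p of 0.0719, 0.106, 0.116 and 0.187), with library-size scaling (0.0504) or with limma-voom (0.0718). Without control replicate 2 its log2 fold change was -0.78.

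Of 32 tested genes of the actin machinery that engulfs antibody-coated particles, 13 rose, 7 fell and 12 did not pass, with a median log2 fold change of 0.04. The actin-elongation gene Vasp (1.21 ± 0.20), Marcksl1 (0.97 ± 0.10) and the phospholipase gene Pld1 (0.77 ± 0.24) were the highest. Gsn, which codes for the actin-severing protein gelsolin, fell from 190.2 ± 15.45 to 93.5 ± 7.57 CPM (-1.02 ± 0.08, edgeR adjusted p = 7.7e-06), and the cofilin gene Cfl1 (-0.68 ± 0.13) and Arpc3 (-0.66 ± 0.07) fell as well. Pld1 did not pass without HFCS replicates 1 or 2 or control replicate 3 (edgeR adjusted p of 0.0627, 0.0748 and 0.0752).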

How the data were processed

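RNA was extracted with Trizol and sequenced with standard Illumina libraries, per the labels' protocols. The authors deposited a table of unnormalised read counts for each gene. The submitters' processing notes name featureCounts 1.5.0-p3, HISAT2 2.0.5, CASAVA and the build mm10. Annotation, strand setting, read length and handling of multi-mapping reads were not given in the sources used here. Gene coordinates were those deposited with the counts, and symbols came from a reference list of gene names. Exon lengths came from GENCODE M21, in which 97.2% of the 24379 identifiers had the same coordinates. 35 identifiers had no symbol. Library totals were 13108485 to 15340255.

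Genes were kept by edgeR's filterByExpr (minimum count 10), which left 14360. Groups were taken from the sample titles and compared with edgeR 4.0.16 in R 4.3.3 (TMM, glmQLFit, glmQLFTest, no covariate), with Benjamini-Hochberg adjustment over all tested genes and a threshold of 0.05. CPM used TMM-scaled library sizes, and each SE was derived from the F statistic. Ratios within libraries were compared by exact permutation. Alternatives were 3 other scalings, DESeq2 1.42.0, limma-voom (limma 3.58.1), 2 other filters, the replicate number as a block and each library left out. Removal of a trend on exon length was chosen after seeing the data.

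The members and gene lists were chosen with earlier results of these data known. Named genes were the 10 members, close copies of them, Akr1b3, and from each of the 7 lists the 3 called genes with the highest and the 3 with the lowest log2 fold change. Some genes that the rule names are not reported here. Others are said to be named after their values were seen. Sequence windows were compared across GENCODE M21 transcripts, and promoter sequences are from RefSeq (GRCm38.p6).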

Additional observations from a re-analysis of the deposited data

How the results depend on the processing

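Over 15 alternative settings the 10 genes gave 150 values, of which 142 kept their direction and their side of the threshold, 6 no longer passed and 2 changed sign. The 6 belong to Tyrobp and Pirb with 1 library left out, where log2 fold changes ranged from 0.39 to 0.65 and from 0.88 to 1.56. The 2 belong to Trem2, which ranged from -0.01 to 0.14 and was at -0.00053 without HFCS replicate 2 and -0.01 without control replicate 3. The count of the 10 genes called higher was 9 in all settings that kept every library and 7 to 9 with 1 library left out. Among other Fc receptor genes the count called higher and the count called lower each ranged from 0 to 1 with 1 library left out, and the latter was 0 with library-size scaling, DESeq2 or no filter on low counts. The Fcgr2b share differed by -6.53 percentage points by raw counts in place of counts per kilobase. Why these values changed was not tested. Library-size scaling moved the median of all tested genes to 0.08 on the log2 scale.

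With the replicate number as a block, Sirpa was at 1.43, Tyrobp at 0.48, Pirb at 1.13 and Trem2 at 0.04, and no call on the 10 genes changed. Correlations of deviations between libraries of the same number were 0.167, -0.064 and 0.191. HFCS replicates 1 and 3 correlated best with the control of their own number. HFCS replicate 2 correlated best with control replicate 1 (0.163). These values do not settle whether the numbers mark a pairing. The block gave 3619 genes higher and 3533 lower, against 3223 and 3224 without it. Over the control-labelled libraries Fcgr3 had 100 counts and Pirb 88, which limits the precision of both.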
